A study of Homo sapiens with 4 samples.

Results

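Of 17687 named genes measured, 10 genes of the mTORC1 pathway were followed in human liver cancer cells transfected with a mimic, a synthetic copy, of the microRNA miR-4730. They are the kinase MTOR, its partners RPTOR and MLST8, the inhibitory subunit AKT1S1, the small GTPases RHEB and RRAGC, the nutrient sensor SAMTOR, and DEPDC5, NPRL2 and NPRL3, which form the GATOR1 complex. The genes were chosen by the difference between mimic and control arrays, with 5 activators set against 5 inhibitors of mTORC1, so those differences are given as a description and carry no test. Each of the 10 had 1 probe set.

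mTORC1 is a protein kinase complex on the lysosome that turns on protein, lipid and nucleotide synthesis and holds back autophagy when amino acids and growth factors are plentiful. Rag GTPases bring it to the lysosomal surface, where RHEB activates it. GATOR1 switches the Rag GTPases off when amino acids are scarce, and SAMTOR acts through GATOR1 when the methyl donor S-adenosylmethionine is low. In liver the pathway couples feeding to growth and lipid synthesis. The arrays measure RNA, and mTORC1 activity was not measured.

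Li-7 and HEP-G2 cells were used, both established lines, in a study whose title concerns hepatocellular carcinoma. Each line was transfected by lipid with the miR-4730 mimic at 3 nM, 24 h after seeding, or with the supplier's negative control oligonucleotide. This made 4 groups of 1 Affymetrix array each, so no group had a replicate, and the lines were grown in different media. Line and medium therefore cannot be told apart.

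Values are on the authors' deposited log2-like scale, with log base and normalization not given in the sources used here. Medians per array were 7.17 for both Li-7 arrays, 7.05 for HEP-G2 control and 7.03 for HEP-G2 mimic. As a background limit, each array's own 95th percentile over its 612 negative controls was taken, and it ran from 7.99 to 8.72. Of 7 hepatocyte markers measured, ALB, AFP, APOA1, APOB, TTR, SERPINA1 and FOXA2, 0 exceeded the limit on the Li-7 control array, 1 (SERPINA1) on the Li-7 mimic array and 6 on each HEP-G2 array. Their summed values were 40.7 and 41.4 in Li-7 and 92.5 and 95.7 in HEP-G2, control before mimic. Such sums of log2-like values are not amounts and give no fold between the lines. The liver label of Li-7 was thus not borne out by these markers. Of 8 markers of blood, endothelial and stromal cells, 2 exceeded the limit on each array, with sums from 49.8 to 51.2. They were not the same genes, being COL1A2 and LUM in Li-7 and COL1A2 and ACTA2 in HEP-G2. LUM was lower in HEP-G2 by -5.98 and ACTA2 higher by 3.95. HMGA1, the gene the study title names as the target, stood at 14.93 with control and 10.91 with mimic in Li-7 cells, and 14.79 and 11.61 in HEP-G2 cells.

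The mature mimic sequence is shown first, since its seed is the part of a microRNA that pairs with target transcripts. The seed, bases 2 to 8, is in capitals. The sequence is from RefSeq, GRCh38.p14, at chr17:80419427-80419449 on the plus strand.

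hsa-miR-4730: cUGGCGGAgcccauuccaugcca

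No other mature human microRNA among 2545 RefSeq entries had this seed. The gene for miR-4730 lies within ENDOV on chromosome 17, and 1 protein-coding gene, NPTX1, lies between it and RPTOR. Transcript sequences were not used here, so seed matches in the 10 genes were not searched.

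Among the inhibitors of mTORC1, AKT1S1 had values lower by more than 2-fold with the mimic in both lines, with every array above the background limit. The deposited values of NPRL3 were lower and those of SAMTOR higher by a similar size, but NPRL3 lay under the limit on all 4 arrays and SAMTOR on both control arrays, so neither size is measured. On the deposited values, members at least 2-fold lower in both lines numbered 2 of 10, against 1.76% of the 12381 genes kept after a filter on low values, and members at least 2-fold higher 1 of 10, against 1.03%. Values were then raised to the higher of the limits of that line's arrays where they lay below it. After this, 1 of 10, AKT1S1, was at least 2-fold lower, against 1.10% of genes, and 0 were at least 2-fold higher, against 0.468%. All 10 genes passed the filter. These members were chosen on this contrast, so nothing is read from the shares.

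AKT1S1 encodes PRAS40, a subunit that blocks substrate access to mTORC1 and is released when AKT phosphorylates it. Its value was 10.06 on the Li-7 control array, 8.28 with the mimic in that line, 11.03 on the HEP-G2 control array and 9.15 with the mimic there. Both mimic arrays lay below both control arrays, and all 4 values lay above the background limit of their array. The difference was -1.78 for Li-7 and -1.88 for HEP-G2 cells, which puts the gene at rank 43 and rank 67 from the lowest of the 5552 genes above the limit on every array. The gene was chosen on this contrast, so nothing is read from the ranks. The mean difference of -1.83 corresponds to 3.55-fold. The Li-7 mimic value lay under the limit of the Li-7 control array, 8.72. Raised to that limit, it gave a Li-7 difference of -1.33, or 2.52-fold, while the HEP-G2 difference was unchanged. AKT1S1 overlaps TBC1D17 in RefSeq, a gene not analysed here.

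SAMTOR encodes a sensor of S-adenosylmethionine that binds GATOR1 and restrains mTORC1 when the metabolite is low. Its value was 7.78 on the Li-7 control array, 9.39 with the mimic in that line, 6.75 on the HEP-G2 control array and 8.78 with the mimic there. Both mimic arrays lay above both control arrays. The differences were 1.62 for Li-7 and 2.03 for HEP-G2 cells, but both control values lay under the background limit. With values below the limit raised to the higher of the limits of that line's arrays, SAMTOR was at least 1.59-fold higher in Li-7 and at least 1.35-fold higher in HEP-G2.

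The GATOR1 subunits all had lower values with the mimic in both lines, yet none exceeded the background limit on any array. GATOR1 stimulates GTP hydrolysis by RRAGA and RRAGB and so turns mTORC1 off. NPRL3, one of its subunits, stood at 8.05 with control and 5.39 with mimic in Li-7 cells, and 8.07 and 6.28 in HEP-G2 cells. The control values of NPRL3 were nearly the same in both lines, and both mimic values were well below them, with differences of -2.65 and -1.79.

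NPRL2, its partner subunit, stood at 6.76 with control and 6.45 with mimic in Li-7 cells, and 7.32 and 6.54 in HEP-G2 cells. Both NPRL2 mimic values lay below both control values, with differences of -0.31 and -0.77. DEPDC5, the largest subunit, stood at 6.14 with control and 6.12 with mimic in Li-7 cells, and 7.66 and 7.24 in HEP-G2 cells, and its arrays separated by line and not by treatment. For all 3 genes the size and direction of a difference below the limit are uncertain, and no fold is given. NPRL3 overlaps MPG in RefSeq, and MPG stood between 5.88 and 6.75 on the 4 arrays.

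**Figure D1:**
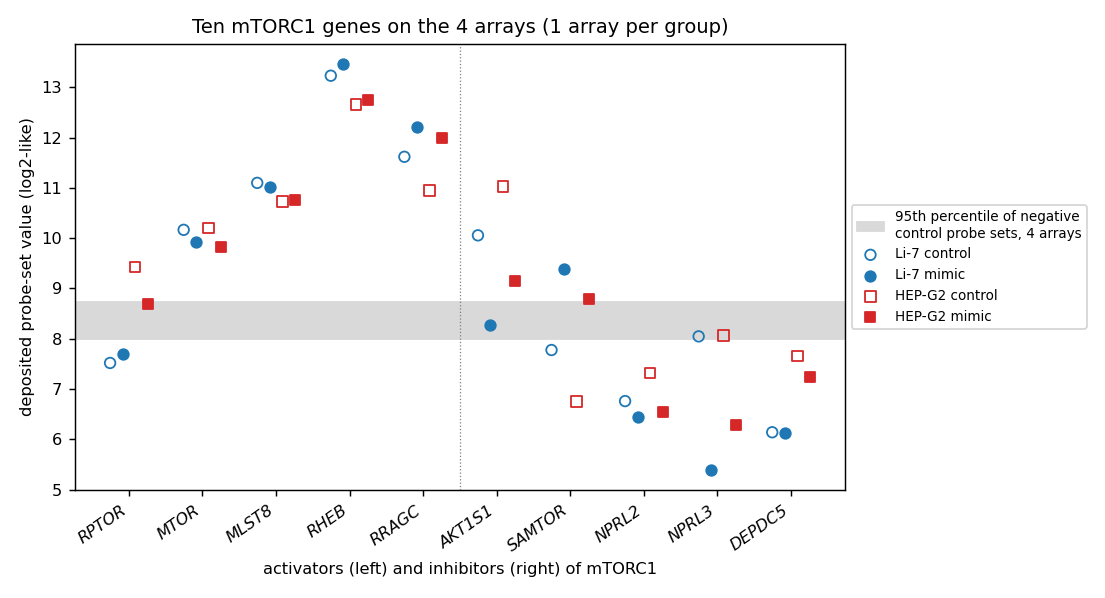
Deposited log2-like values (vertical axis) of the 10 genes (horizontal axis) on each array, with circles for Li-7, squares for HEP-G2, open for control and filled for mimic; the grey band spans the background limits of the 4 arrays, 7.99 to 8.72. AKT1S1 lies lower and SAMTOR higher on both mimic arrays, SAMTOR from control values under the limit, and the 3 GATOR1 genes lie under the limit of their array throughout.

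Of the core subunits, MTOR and MLST8 had small differences. MTOR, the catalytic kinase, was at 10.16 with control and 9.92 with mimic in Li-7 cells, and 10.21 and 9.82 in HEP-G2 cells. Both of its mimic values were below both control values, by -0.25 and -0.39 within the lines. MLST8, which binds the kinase domain of MTOR, stood at 11.10 with control and 11.01 with mimic in Li-7 cells, and 10.72 and 10.76 in HEP-G2 cells, and its differences of -0.09 and 0.03 had opposite signs.

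RPTOR, the scaffold that recruits substrates and binds the Rag GTPases, stood at 7.52 with control and 7.70 with mimic in Li-7 cells, and 9.43 and 8.68 in HEP-G2 cells. Its difference was 0.18 in Li-7, where both arrays lay under the background limit, and -0.74 in HEP-G2, where both lay above it. The arrays of RPTOR thus separated by line, with both HEP-G2 values above both Li-7 values.

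RRAGC and RHEB, a pair of GTPases that act on the lysosome, had higher values with the mimic in both lines. RRAGC, the partner that pairs with RRAGA or RRAGB in the active heterodimer, stood at 11.62 with control and 12.20 with mimic in Li-7 cells, and 10.94 and 11.99 in HEP-G2 cells. Both mimic values of RRAGC exceeded both control values, and its difference of 0.58 for Li-7 and 1.05 for HEP-G2 cells was the largest among the 4 activators above the limit on every array. RHEB, the GTPase that activates the kinase, stood at 13.23 with control and 13.46 with mimic in Li-7 cells, and 12.66 and 12.75 in HEP-G2 cells. Its differences of 0.23 and 0.10 were smaller than the gap between the lines.

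Set side by side, the 5 activators had a median difference of 0.18 for Li-7 and 0.033 for HEP-G2 cells, and the 5 inhibitors one of -0.31 and -0.77. The medians over all 12381 genes were 0.021 and 0.018. Of the activators, 2 were higher in both lines, 1 was lower in both and 2 had opposite signs. Of the inhibitors, 4 were lower in both lines and SAMTOR was higher in both. Over all genes, 34.1% were higher in both lines and 31.0% were lower in both. The inhibitor median rests on values under the background limit, since 3 of the 5 inhibitors were under it on every array, while 4 of the 5 activators were above it on every array.

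**Figure D2:**
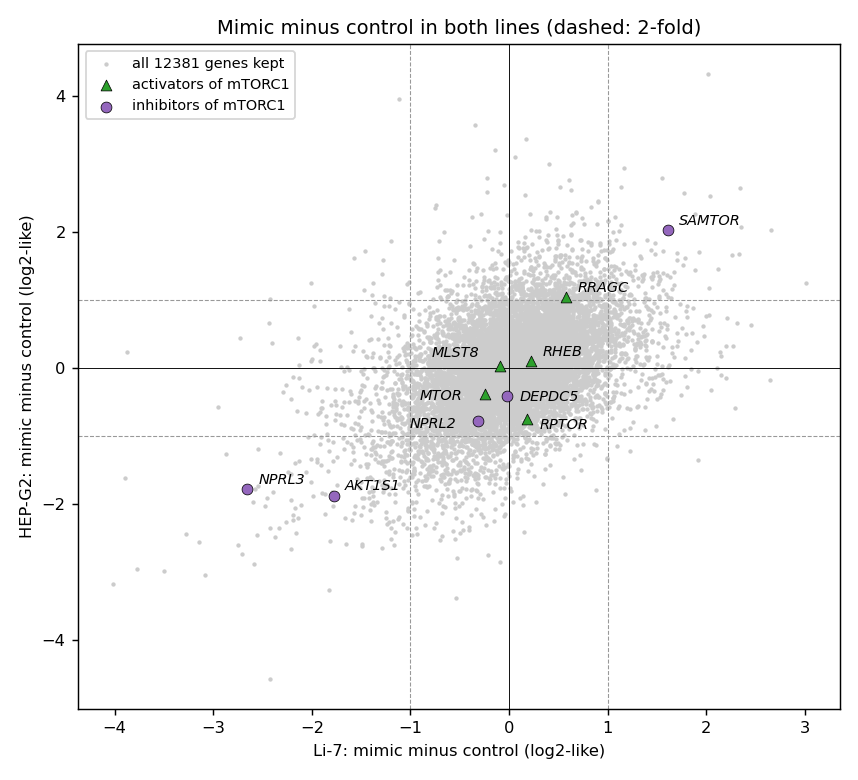
Mimic minus control in Li-7 (horizontal axis) against HEP-G2 (vertical axis), on the deposited log2-like scale, for all 12381 genes kept (grey), the 5 activators (triangles) and the 5 inhibitors (circles); dashed lines mark 2-fold. AKT1S1 and NPRL3 lie beyond 2-fold at the lower left and SAMTOR beyond it at the upper right, the positions of NPRL3 and SAMTOR resting on values under the background limit, while RRAGC passes the line in HEP-G2 only.

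Stretches upstream of the start site are shown for RRAGC, SAMTOR and NPRL3. Deposited values were higher with the mimic in both lines for RRAGC and SAMTOR, and lower for NPRL3. NPRL3 lay under the background limit on every array, so its direction is uncertain, and SAMTOR lay under it on both control arrays. RefSeq windows on GRCh38.p14 matched 8 of the 10 genes, and AKT1S1 and MLST8 were not among them. The E-box CACGTG, the core of the sites bound by TFEB and MYC family factors, and CCAAT, bound by NF-Y, were searched on both strands in the 250 bases before the start, and matches are in capitals. The motifs share no letters with each other where they match. The windows lie at chr1:38859773-38860022 for RRAGC, chr7:112939876-112940125 for SAMTOR and chr16:138674-138923 for NPRL3, each on the minus strand and written 5′ to 3′.

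RRAGC: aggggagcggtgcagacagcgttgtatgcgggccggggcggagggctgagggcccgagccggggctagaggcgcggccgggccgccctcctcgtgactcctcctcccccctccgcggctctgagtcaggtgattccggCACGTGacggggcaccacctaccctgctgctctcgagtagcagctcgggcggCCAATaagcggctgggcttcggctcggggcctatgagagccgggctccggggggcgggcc

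SAMTOR: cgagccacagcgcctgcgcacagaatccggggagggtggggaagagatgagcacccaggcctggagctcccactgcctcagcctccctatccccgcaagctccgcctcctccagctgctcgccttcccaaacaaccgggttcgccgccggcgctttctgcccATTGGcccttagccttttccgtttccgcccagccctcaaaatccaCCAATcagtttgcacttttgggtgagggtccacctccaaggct

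NPRL3: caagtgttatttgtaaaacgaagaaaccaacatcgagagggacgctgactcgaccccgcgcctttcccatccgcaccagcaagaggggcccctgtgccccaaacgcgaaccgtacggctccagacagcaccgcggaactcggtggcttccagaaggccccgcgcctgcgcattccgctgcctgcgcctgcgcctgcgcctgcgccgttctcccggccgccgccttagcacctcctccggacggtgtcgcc

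CACGTG was found in 1 of the 8 genes, RRAGC, and in 6.35% of all 35116 windows of that length. CCAAT was found in 5 of the 8, MTOR, NPRL2, RHEB, RRAGC and SAMTOR, and in 32.0% of all windows. The NPRL3 window held neither. These matches describe letters only, and genes with a match include ones that were higher and ones that were lower with the mimic.

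The genes differed between the lines as well, a contrast that did not choose them. Across all genes the line difference was tested with limma in a linear model with line and treatment and Benjamini-Hochberg adjustment. RPTOR, AKT1S1 and DEPDC5 were higher in HEP-G2 and SAMTOR was lower, 3 and 1 of 10 genes, where 20.7% of all genes were called higher and 24.3% lower in HEP-G2. The share of members called is thus close to that of all genes. The residual of this model is the disagreement of the mimic difference between the lines, with 1 degree of freedom per gene before moderation, and replicate cultures were not measured. The standard errors and p-values of the members thus draw on the mimic differences that chose them, and are not independent of that choice.

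RPTOR had a line difference of 1.45 (SE 0.30, adjusted p = 0.00745), from means of 7.61 for Li-7 and 9.05 for HEP-G2 cells, 1 control and 1 mimic array each. Both Li-7 values were under the background limit. With each raised to the limit of its own array, RPTOR was 1.62-fold higher in HEP-G2. The limit of the Li-7 control array, 8.72, exceeded the HEP-G2 mimic value of 8.68, so the higher Li-7 limit would give a smaller fold. DEPDC5 stood at a difference of 1.32 (SE 0.25, adjusted p = 0.00541), entirely under the limit. AKT1S1 was higher in HEP-G2 by 0.92 (SE 0.24, adjusted p = 0.0199), the only called member with all values above the limit.

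SAMTOR, with both control values under the limit, was lower in HEP-G2, with a difference of -0.81 (SE 0.26, adjusted p = 0.0376) that did not pass after median centring of the arrays (adjusted p = 0.0655). With treatment left out of the model, the calls of SAMTOR and AKT1S1 were lost (adjusted p = 0.491 and 0.433). For the other 6 genes adjusted p ran from 0.0725 for RHEB, at -0.64, to 0.929 for MTOR, at -0.032. RHEB was also called when moderation used an intensity trend. Ordered by line difference from lowest to highest, the 5 genes above the limit on every array ran RHEB, RRAGC, MLST8, MTOR and AKT1S1, and differences between neighbours in this order were not tested.

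**Figure D3:**
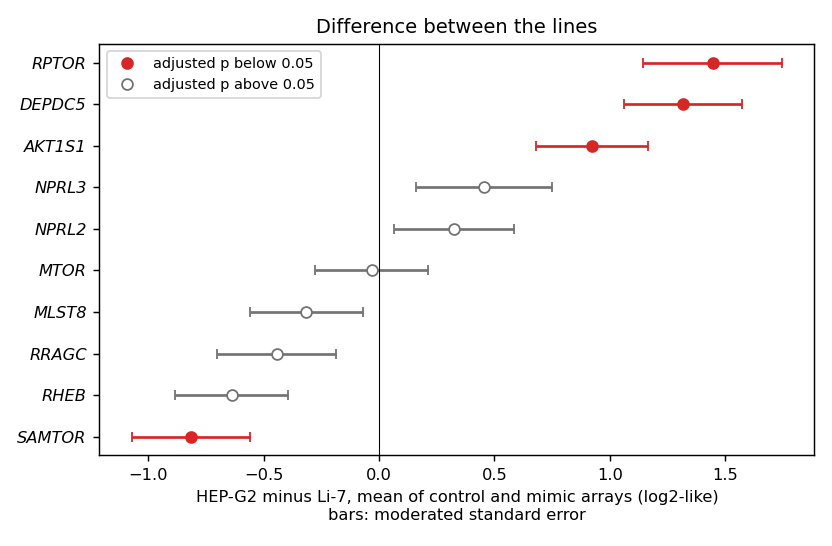
HEP-G2 minus Li-7 (horizontal axis, log2-like, mean of 1 control and 1 mimic array per line) for the 10 genes, with bars of 1 moderated standard error; filled points passed limma's test over all genes at an adjusted p of 0.05. AKT1S1, at 0.92, is the filled point with every value above the background limit; RPTOR at 1.45, DEPDC5 at 1.32 and SAMTOR at -0.81 rest in part or wholly on values under it.

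The rest of the pathway was read from 68 further genes, of which 62 had a probe set here and 57 passed the filter. Of these 57, 0 passed limma's test of the mimic difference over all genes in either direction, where 0.0808% of all genes were called higher and 0.339% lower. At an unadjusted p under 0.05 there were 9 higher and 4 lower, 13 of 57, against 19.5% of all genes. By value, 24 of the 57 were higher in both lines and 22 lower in both, where 34.1% and 31.0% of all genes were. Their median mean difference was -0.021, against 0.025 over all genes. The 10 genes called higher and 42 called lower over all genes made 80.8% lower, a share that was 58.7% after quantile normalization, 61.6% with an intensity trend and 65.3% with the filter at the median gene.

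Among the amino acid sensors, SESN3 came closest to the test and 0 of 7 passed. SESN3, a sestrin, of the family whose members SESN1 and SESN2 bind leucine and release GATOR2, stood at 7.30 with control and 8.74 with mimic in Li-7 cells, and 7.65 and 9.39 in HEP-G2 cells. Both mimic values lay above both control values, with the control values under the background limit, and the mean difference of the deposited values was 1.59 (SE 0.25, limma adjusted p = 0.0601). With values raised to the higher limit of each line, SESN3 was at least 1.01-fold higher in Li-7 and at least 2.06-fold higher in HEP-G2. Over the alternatives SESN3 was the gene called in 4 settings. These were quantile normalization, an intensity trend, the filter at the median gene and the filter on the background limit. In that order, calls over all genes were 465, 411, 366 and 200, against 52 as deposited, so these settings called more genes in general. SESN3 exceeded the background limit on its mimic arrays alone, so it met the last of these filters only where it was high. Nothing is read from that call. SESN1 stood at 0.56 for Li-7 and 0.87 for HEP-G2 cells (adjusted p = 0.195), and SLC38A9, a lysosomal arginine sensor, at 0.66 and 0.35 (adjusted p = 0.316). Of 7 sensors kept, 6 were higher in both lines, with a median of 0.50, where 34.1% of all genes were higher in both. Only CASTOR2, which was lower in both, and SAR1B exceeded the limit on every array, while CASTOR1 exceeded it on none and SESN1, SESN2, SESN3 and SLC38A9 on 2 of 4.

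The TSC complex, which inactivates RHEB, was listed with genes that act on it. Of these 11 genes 6 were higher in both lines, 3 lower in both and 2 opposite, with a median of 0.14, and 0 passed (lowest adjusted p = 0.126). The list holds 6 subunit genes of AMPK, the energy sensor that phosphorylates TSC2 and RPTOR and so restrains mTORC1. Of these 6, grouped after their values were seen, 5 were higher in both lines and 1, PRKAG1, lower. Over all genes, 34.1% were higher in both lines and 31.0% lower in both. Outside the subunits and also named after their values were seen, STK11, the kinase that activates AMPK, stood at -0.33 and -0.67, and DDIT4, a stress-induced inhibitor of mTORC1, at 0.50 and -1.19. PRKAB2 stood at 0.64 for Li-7 and 1.42 for HEP-G2 cells, and PRKAA2, a catalytic subunit, at 0.76 and 1.06. Both Li-7 values of PRKAB2, and those of SESN1, lay under the background limit. So did both HEP-G2 values of PRKAG2 and the HEP-G2 control value of PRKAA2. TBC1D7, a subunit of the TSC complex, stood at -0.76 and -1.19 (adjusted p = 0.126) and exceeded the limit on the HEP-G2 control array alone. Its partners TSC1 and TSC2, named after their values were seen, stood at 0.25 and 0.02 and at 0.08 and -0.12, TSC2 under the limit on every array.

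Of the 7 other Rag GTPase and Ragulator genes, 3 were higher in both lines, 3 lower in both and 1 opposite. RRAGD, which like RRAGC pairs with RRAGA or RRAGB, stood at 10.61 with control and 11.14 with mimic in Li-7 cells, and 9.93 and 11.40 in HEP-G2 cells. As for RRAGC, both mimic values exceeded both control values, with differences of 0.53 and 1.47 (adjusted p = 0.157). RRAGA, named like RRAGB after its values were seen, stood at -0.16 and -0.025 with every value above the limit, and RRAGB at 0.11 and 0.16 with every value under it. The Ragulator subunits LAMTOR3 and LAMTOR4, which anchor the Rag GTPases to the lysosome, stood at -0.42 and -0.45 and at -0.66 and -0.15, LAMTOR4 under the limit in HEP-G2. GATOR2, which counters GATOR1, had a median of -0.073 over 5 genes. Its SEH1L and SEC13 were lower in both lines as deposited but had a positive HEP-G2 difference after cyclic loess, and MIOS stood at 0.09 and -0.24. In KICSTOR, which anchors GATOR1, ITFG2 stood at -0.41 and -1.27 and KICS2, under the limit on every array, at -0.47 and -0.62.

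In the folliculin arm, which acts on RRAGC and RRAGD, FNIP1 stood at 0.12 in both lines, FNIP2 at 0.40 and 0.11, and FLCN, under the background limit on all arrays, at -0.50 and 0.24. Among other partners of MTOR, DEPTOR, an inhibitory subunit, stood at -0.94 and -0.79 with all values under the limit. TTI1, which helps assemble the complex, stood at -0.58 and -0.96, and RICTOR, the scaffold of mTORC2, at 0.98 and 0.15. Upstream, PDPK1, the kinase that activates AKT, stood at 0.77 in both lines, PIK3R1 at 1.09 and 0.44, and PIK3CB at 0.10 and 0.92. The Li-7 control values of PDPK1 and PIK3R1 lay under the limit.

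Downstream of the kinase, EIF4EBP1, the translation repressor that mTORC1 phosphorylates, had unlike mimic differences in the lines, a contrast that was not tested. It stood at 11.36 with control and 11.40 with mimic in Li-7 cells, and 11.81 and 9.84 in HEP-G2 cells, so the HEP-G2 mimic array alone was low. The mean difference was -0.97 (SE 0.45, limma adjusted p = 0.300). EIF4B, an initiation factor, stood at -0.24 and -1.18, and RPS6, the ribosomal protein phosphorylated by S6 kinase, at -0.29 and -0.78. Of 10 substrates and effectors kept, 6 were lower in both lines, where 31.0% of all genes were.

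**Figure D4:**
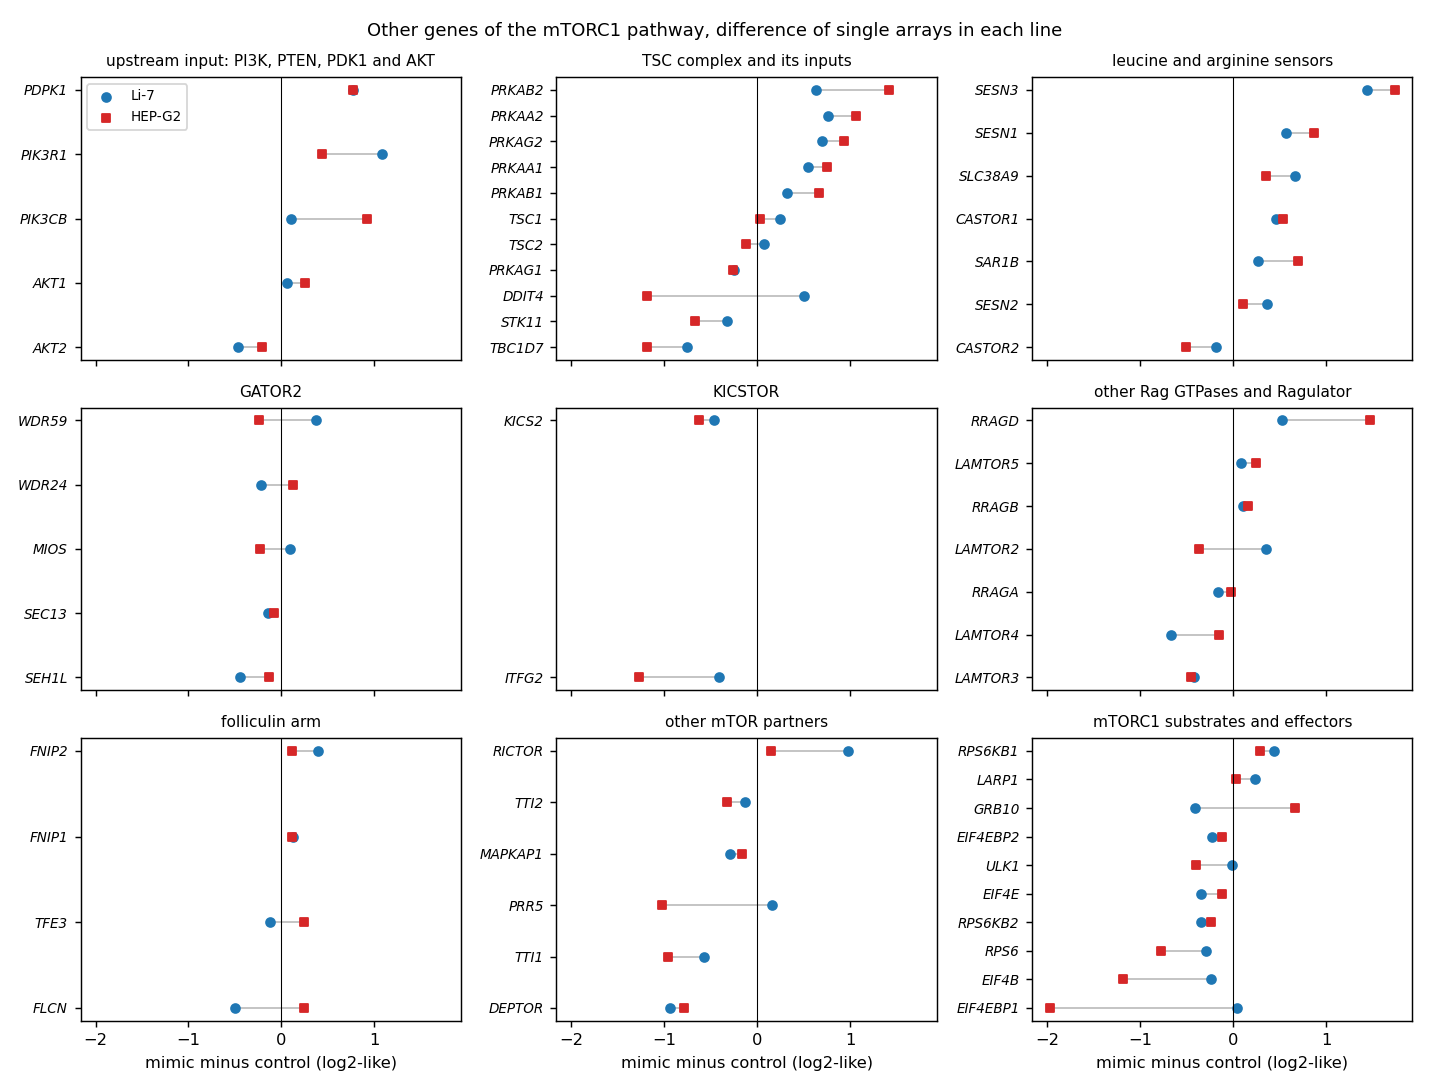
Mimic minus control (horizontal axis, log2-like) for the 57 other pathway genes kept, in 9 lists, with circles for Li-7 and squares for HEP-G2, each a difference of single arrays. SESN3, with control values under the background limit, lies at 1.44 and 1.74, and EIF4EBP1 has its points far apart at 0.04 and -1.98.

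By pattern over the 4 arrays, after each gene was centred on its own mean, the genes nearest to AKT1S1 were RPS15A, BPNT1 and ELP4, at Euclidean distances of 0.27, 0.28 and 0.29. RPS15A, a protein of the small ribosomal subunit, stood at -1.90 for Li-7 and -1.84 for HEP-G2 cells. The genes nearest to SAMTOR were ITGAV, SH3BGRL3 and PARD6B, at 0.17, 0.37 and 0.48. For ITGAV, an integrin subunit, the differences were 1.48 and 1.83, and it lay above the background limit on all 4 arrays. Such likeness rests on 4 arrays and is a description.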

How the data were processed

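RNA of each of the 4 groups was measured on 1 Affymetrix array. The authors deposited 1 table of 24351 probe-set values, read here as log2; Transcriptome Analysis Console and Affymetrix Expression Console are the tools in the submitters' processing notes. How background, normalization, summarisation and the log were handled is not given in the sources used here. Probe sets with 1 gene in the platform annotation (17709) were named through RefSeq identifiers, all of which matched, and the brightest stood for each gene. A filter kept 12381 genes whose mean over the arrays reached the 30th percentile (4.90).

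The deposited log2 values were fitted as they stand with lmFit and eBayes (limma 3.58.1, R 4.3.3), with line and treatment as terms, and adjusted by Benjamini-Hochberg at 0.05. The spread behind these p-values is how far the mimic difference in HEP-G2 departs from that in Li-7. In the main fit eBayes combined it with a prior of 5.85 degrees of freedom drawn from all genes. That prior outweighs the 1 degree of freedom a gene has itself. Variation between replicate cultures does not enter. The code was run on values simulated from the same additive model, with no background limit. Such a run checks the code and cannot show that the model holds for these arrays. Members and lists were chosen with earlier results of these data known. Named genes were the 10 members, up to 3 per list with the largest mean difference, the 3 nearest patterns for AKT1S1 and SAMTOR, and HMGA1. Alternatives were 3 normalizations, 2 filters, probe-set means, trended or robust moderation, a model without the other factor and a 1.5-fold limit. Those using the background limit were added after seeing the data.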

Additional observations from a re-analysis of the deposited data

Results flagged for a closer look

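Differences of opposite sign in the 2 lines were found for 2 of the 10 genes and 11 of the 57 other pathway genes, each from single arrays with no replicate, and this contrast was not tested. HEP-G2 response minus Li-7 response was -0.92 for RPTOR and 0.12 for MLST8. Among the other genes it was negative for EIF4EBP1 at -2.01, DDIT4 at -1.69, PRR5 at -1.18, LAMTOR2 at -0.72, WDR59 at -0.62, MIOS at -0.32 and TSC2 at -0.19. It was positive for GRB10 at 1.08, FLCN at 0.74, TFE3 at 0.36 and WDR24 at 0.34. Of these 13 genes, 7 lay above the background limit on all 4 arrays, and TSC2, WDR24 and FLCN lay under it on all 4.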

How the results depend on the processing

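Of the 10 genes, 3 were at least 2-fold changed in both lines as deposited, and AKT1S1, SAMTOR and NPRL3 were again those genes after quantile normalization, median centring and cyclic loess, with probe-set means and at 1.5-fold. With values floored at the higher background limit of each line, 1, AKT1S1, remained (-1.33 in Li-7). All 60 signs of member differences were kept under the 3 normalizations, with shifts of at most 0.14. The line difference, with 4 calls, gave 2 (DEPDC5 and RPTOR) without treatment in the model, from 3 to 5 otherwise, and MTOR turned to 0.094 after median centring. The other pathway genes, with 0 calls, gave 1 (SESN3) after quantile normalization, with an intensity trend, with the filter at the median gene and with the filter on the background limit. SESN3 met that last filter through its mimic arrays alone, so nothing is read from that call. Calls over all genes for the mimic difference were 52 as deposited, 465 after quantile normalization, 411 with the trend, 366 with the filter at the median gene, 200 with the filter on the background limit, 23 after cyclic loess and 0 without line in the model. A line's response is a difference of 1 array from 1 array, and values under the background limit bound most inhibitor differences.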
